A study of Mus musculus with 63 samples.

Results

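ATP, ADP, UDP and adenosine released by injured or active cells act on purinergic receptors. The ionotropic P2X receptors open to ATP, the metabotropic P2Y receptors answer to nucleotides or UDP-sugars, and the adenosine receptors couple to G proteins. Ectonucleotidases set the balance among them: CD39, encoded by Entpd1, removes phosphates from extracellular ATP and ADP, and CD73, encoded by Nt5e, turns AMP into adenosine. Microglial P2X4 and P2X7 are textbook mediators of chronic pain, P2Y6 is known for UDP-evoked phagocytosis by microglia, and adenosine acting on its A1 receptor dampens synaptic release. The genes described here were 10 members of this system that pain research has dwelt on: P2rx4, P2rx7, P2ry1, P2ry6, P2ry14, Adora1, Adora2b, Adora3, Entpd1 and Nt5e. They were chosen by symbol, each symbol matched 1 of the 56980 gene identifiers counted, and all 10 passed the filter on low counts in every comparison.

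The libraries came from female C57BL/6J mice aged 12 weeks at the start, which received either a full thickness thermal burn of about 7 to 8% of the body surface on the flank or a sham procedure of shaving without a burn. Every mouse, sham included, was injected just before in both motor cortices with AAV5-CamKII-eGFP and AAV1-mDlx-NLS-mRuby2, viral reporters driven by a promoter and an enhancer meant for excitatory and inhibitory neurons. All mice had analgesics around surgery, and 5 burned mice also had buprenorphine afterwards, so this treatment cannot be told apart from the burn in those mice. After 5 weeks, cells positive for eGFP alone (CaMKII positive) or for both reporters (CaMKII-mDlx double-positive, labelled inhibitory neurons) were sorted from motor cortex, and cells stained for ACSA2, an astrocyte surface antigen, or for CD11b, an integrin of microglia and other myeloid cells, were sorted from cortex caudal to it. The 58 libraries used, from 17 mice, were 4 burn and 6 sham in the CaMKII positive population, 9 and 7 in the double-positive, 9 and 8 in the ACSA2-positive, and 8 and 7 in the CD11b-positive population. They held 13346143 to 134703744 counts, and the limit that a count of 0 allows (3 counts) lay between 0.0223 and 0.225 CPM (counts scaled to the total of each library).

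Markers went against the labels of both motor cortex populations, which are therefore called here by their sort gate. In double-positive libraries 7 microglia markers, Csf1r and Cx3cr1 among them, summed to 20449 ± 3876 CPM (SD, n = 16), near the 24379 ± 3367 CPM of the CD11b-positive libraries (n = 15), whereas all 8 inhibitory neuron markers averaged under 1 CPM. CaMKII positive libraries held 18366 ± 3197 CPM of 7 astrocyte markers and 5363 ± 2036 CPM of 6 endothelial markers, beside 75.0 ± 41.6 CPM of 6 general neuron markers (n = 10). Their 6 excitatory neuron markers summed to 144 ± 122 CPM, with a range of 22.7 to 397 CPM. ACSA2-positive libraries matched their label, with 38279 ± 4296 CPM of astrocyte markers and 202 ± 30.4 CPM of microglia markers (n = 17). They also held 757 ± 178 CPM of 5 mural markers and 658 ± 307 CPM of 6 endothelial markers. In such bulk samples fewer cells of a type and less RNA per cell cannot be told apart, and the gate and the cortical region cannot be told apart between a motor cortex and a caudal population.

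The members fell into a set high in the CD11b-positive and double-positive libraries (P2rx4, P2rx7, P2ry6, Adora3 and Entpd1), a set high in the ACSA2-positive and CaMKII positive libraries (Adora1 and Adora2b), and P2ry1, P2ry14 and Nt5e, whose highest mean was in the CaMKII positive libraries. Summed over the 10 genes, the CD11b-positive libraries held 1567 ± 123 CPM and the double-positive 1476 ± 151 CPM, against 347 ± 50.9 CPM in the CaMKII positive and 257 ± 22.2 CPM in the ACSA2-positive libraries. Divided by exon length, Entpd1 led in 3 populations, with 173 CPM per kb in CD11b-positive, 162 in double-positive and 22.5 in CaMKII positive libraries. In the ACSA2-positive libraries Adora2b led with 35.9 CPM per kb, ahead of Adora1 with 13.5 and P2rx7 with 6.23.

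**Figure D1:**
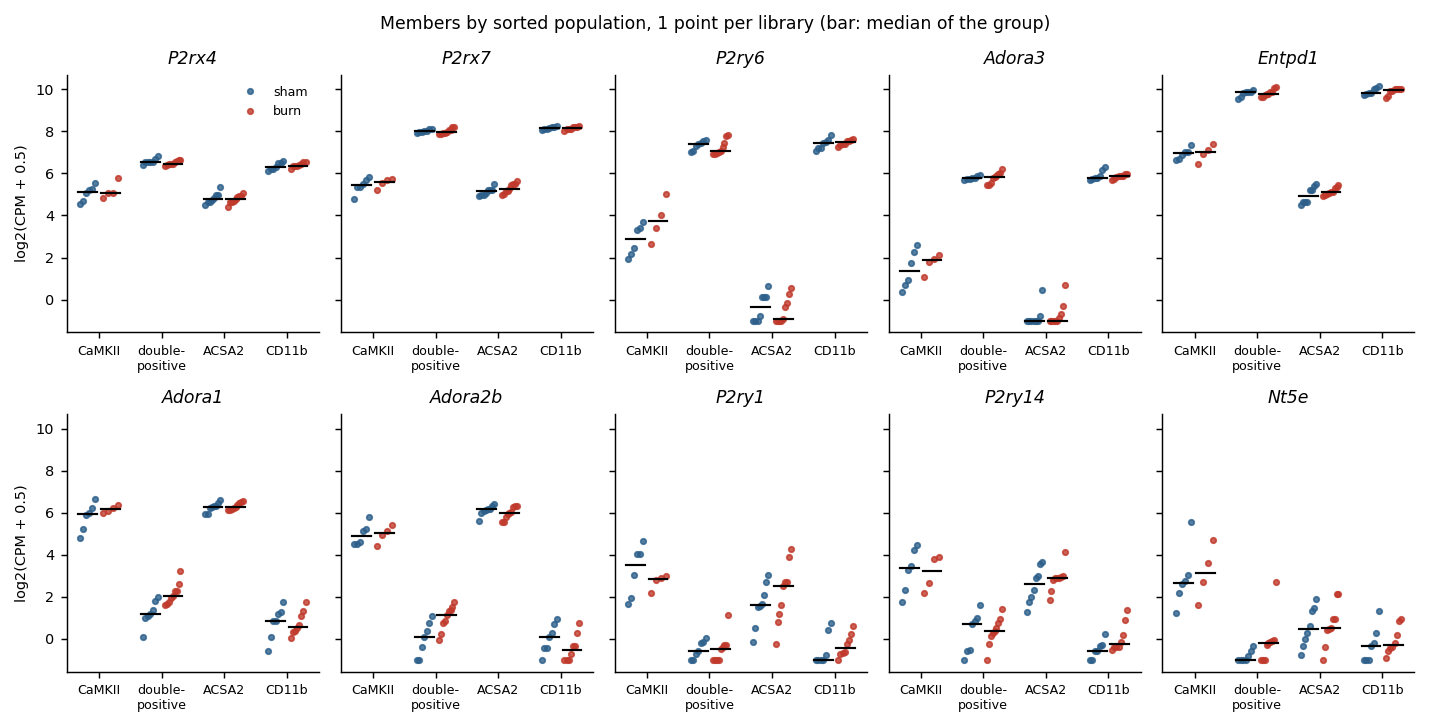
Level of each of the 10 genes as log2(CPM + 0.5), by sorted population and treatment (burn red, sham blue); points are libraries, set side by side in order of value, and bars are group medians. The P2rx7, Entpd1, P2ry6 and Adora3 points of the CD11b-positive and double-positive libraries overlap far above the ACSA2-positive ones, whereas Adora1 and Adora2b are high in ACSA2-positive and CaMKII positive libraries.

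Between the ACSA2-positive and CD11b-positive libraries, all 10 members passed the test of edgeR (an absolute log2 fold change, log2FC, of 1 or more with p.adj no higher than 0.05), 5 higher in each. The share of all 33150 genes called in that comparison was 51.2%, so a call was common there. With the mouse as a block, 9 of the 10 stayed called, Nt5e missing the threshold at a log2FC of 1.61 (p.adj = 0.10, against 1.86 and 0.016 without the block). Levels of 7 members did not overlap between these 2 populations, P2rx4, P2rx7, P2ry6, Adora1, Adora2b, Adora3 and Entpd1, and 23.4% of all genes had no overlap there.

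Promoters of 4 members are shown first, 2 that belong to the CD11b-positive set (Adora3 and P2rx7) and 2 that belong to the ACSA2-positive set (Adora2b and Adora1), since the text returns to how their levels part. They are also the only members whose window holds the core marked below. The windows of Entpd1 and P2rx4, of the CD11b-positive set, hold none and are not shown. Each runs from 250 bases before to 50 after the most upstream annotated start, 5′ to 3′ on the strand of the gene, from the RefSeq annotation of GRCm38.p6. Capitals mark GGAAGT, the core bound by ETS factors, on either strand (read as ACTTCC on the other), extended to GAGGAAGT, the site of the myeloid ETS factor PU.1, where that is present. Adora3 lies at chr3:105904171-105904470 on the plus strand, P2rx7 at chr5:122643677-122643976 on the plus strand, Adora2b at chr11:62248734-62249033 on the plus strand and Adora1 at chr1:134235408-134235707 on the minus strand.
Adora3: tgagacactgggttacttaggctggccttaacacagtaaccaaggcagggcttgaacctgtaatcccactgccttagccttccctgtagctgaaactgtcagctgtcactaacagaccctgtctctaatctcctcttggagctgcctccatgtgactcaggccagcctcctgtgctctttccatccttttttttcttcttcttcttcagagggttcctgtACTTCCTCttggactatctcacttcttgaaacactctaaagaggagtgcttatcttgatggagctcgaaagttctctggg
P2rx7: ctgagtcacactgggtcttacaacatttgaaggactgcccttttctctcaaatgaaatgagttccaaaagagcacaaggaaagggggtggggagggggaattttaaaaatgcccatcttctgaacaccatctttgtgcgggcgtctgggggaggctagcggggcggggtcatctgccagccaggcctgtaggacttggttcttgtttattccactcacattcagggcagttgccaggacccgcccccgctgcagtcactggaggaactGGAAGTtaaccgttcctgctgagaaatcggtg
Adora2b: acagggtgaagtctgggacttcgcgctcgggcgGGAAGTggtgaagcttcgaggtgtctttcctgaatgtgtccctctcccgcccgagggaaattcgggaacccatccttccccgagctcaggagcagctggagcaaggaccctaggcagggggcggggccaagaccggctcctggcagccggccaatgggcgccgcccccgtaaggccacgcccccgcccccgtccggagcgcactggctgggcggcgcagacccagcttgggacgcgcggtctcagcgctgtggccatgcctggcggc
Adora1: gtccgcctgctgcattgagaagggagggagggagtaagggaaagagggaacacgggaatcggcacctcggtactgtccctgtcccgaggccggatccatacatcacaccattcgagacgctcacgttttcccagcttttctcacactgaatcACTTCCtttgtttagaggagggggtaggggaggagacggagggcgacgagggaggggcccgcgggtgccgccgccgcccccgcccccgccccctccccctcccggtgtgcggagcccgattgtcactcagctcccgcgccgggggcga

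PU.1 sites stood in 3.25% and ETS cores in 24.1% of the 27025 promoter windows of that length, every PU.1 site holding a core. Of the 9 members with a window, 4 held a core (Adora3, P2rx7, Adora2b and Adora1) and Adora3 alone held the PU.1 site, 30 bases before the start. The members split as well in CpG dinucleotides, of which the median window held 7. Adora2b had 27, Adora1 26, P2ry1 25, Entpd1 23, Nt5e 23 and P2rx4 18, whereas P2rx7 had 8, P2ry14 4 and Adora3 1. The GC box GGGCGG, searched on both strands and present in 35.9% of windows, occurred 6 times in Adora2b, 4 in Nt5e, 3 in Adora1, 2 in P2rx7, 2 in P2ry1 and 1 time in P2rx4. The E-box CACGTG (7.24% of windows) and the TATA box TATAAA (14.2%) were in none of the 9. These matches describe letters in a window and were not tested against the levels.

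P2rx7 encodes the ATP-gated channel that triggers the NLRP3 inflammasome and the release of IL-1β. In CD11b-positive libraries its level ran from 258 over a median of 286 to 304 CPM, and in double-positive libraries from 236 over 257 to 298 CPM. The ACSA2-positive libraries held 30.3 to 49.3 CPM with a median of 36.4, and the CaMKII positive libraries 27.4 to 55.6 CPM with a median of 45.4. The upper pair and the lower pair did not overlap at all, and within each pair the values overlapped. The level was 7.32-fold higher in CD11b-positive than in ACSA2-positive libraries (95% interval 6.50 to 8.25, p.adj = 9.9e-36). The neighbours in this order did not pass the test, neither double-positive against CD11b-positive (log2FC −0.14 ± 0.08 SE, p.adj = 0.33) nor CaMKII positive against ACSA2-positive (0.08 ± 0.09 SE, p.adj = 0.62). Its coefficient of variation over the 15 CD11b-positive libraries was 4.80%, and in the ACSA2-positive libraries it was 15.7%, where that of Adora1 was 13.3%. The first value depends on scaling by library total. With TMM scaling the SD in CD11b-positive libraries was 23.1 instead of 13.6 CPM, around a mean of 284 CPM. In ACSA2-positive libraries it was 6.55 instead of 5.85 CPM.

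P2rx4 encodes the other ATP-gated channel of the list, known in pain research for its rise in spinal microglia after nerve injury. Its level was 82.9 ± 8.61 CPM in CD11b-positive and 92.3 ± 8.32 CPM in double-positive libraries, against 35.1 ± 9.56 in CaMKII positive and 27.7 ± 4.73 in ACSA2-positive libraries. It was the least divided of its set, 2.83-fold higher in CD11b-positive than in ACSA2-positive libraries (2.51 to 3.18, p.adj = 5.8e-23). Double-positive and CD11b-positive libraries differed by a log2FC of 0.17 ± 0.09 (SE, p.adj = 0.23), and CaMKII positive and ACSA2-positive by 0.14 ± 0.10 (SE, p.adj = 0.32), neither past the test.

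P2ry6, the UDP receptor, was listed at 0 counts in 7 of 17 ACSA2-positive libraries and reached 1.05 CPM at most there, while the CD11b-positive libraries ran from 135 over 171 to 226 CPM. Its double-positive level ran from 122 over 153 to 228 CPM, and the CaMKII positive libraries lay between, from 3.28 over 9.77 to 31.8 CPM. The fitted difference between CD11b-positive and ACSA2-positive libraries was 574-fold (339 to 972, p.adj = 4.1e-29). P2ry6 also separated the CaMKII positive libraries from the ACSA2-positive, where it was lower by 33.1-fold (19.9 to 55.2, p.adj = 2.8e-17), with no overlap. Double-positive and CD11b-positive values overlapped and their difference did not pass the test (p.adj = 0.83). By sequencing batch, the double-positive libraries held 151 to 218 CPM in batch 1, which had burned mice alone, 186 to 228 in batch 2 and 122 to 176 in batch 3. Batches 1 and 3 overlapped, and the difference between batches was not tested.

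Adora3, the Gi-coupled adenosine receptor whose agonists are studied as analgesics, had the same order of populations. It ran from 51.0 over 57.7 to 79.2 CPM in CD11b-positive and from 42.8 over 54.6 to 73.2 CPM in double-positive libraries. In ACSA2-positive libraries it was at 0 in 11 of 17 and at most 1.13 CPM, and in CaMKII positive libraries it was 2.78 ± 1.56 CPM. The fitted difference from CD11b-positive to ACSA2-positive libraries was 480-fold (269 to 855, p.adj = 1.0e-26). Of the exon bases of Adora3, 20.9% lie in Tmigd3 on the same strand, so part of this count could belong to Tmigd3.

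Entpd1, the first enzyme of the chain from ATP to AMP, was the highest member per kb in all populations but the ACSA2-positive. It ran from 776 over 961 to 1129 CPM in CD11b-positive and from 745 over 908 to 1117 CPM in double-positive libraries. The CaMKII positive libraries held 87.4 to 168 CPM and the ACSA2-positive 22.1 to 44.0 CPM, so that these populations overlapped neither with each other nor with the first pair. Entpd1 was 27.3-fold higher in CD11b-positive than in ACSA2-positive libraries (23.2 to 32.2, p.adj = 4.2e-39) and 3.30-fold higher in CaMKII positive libraries than in those (2.81 to 3.88, p.adj = 2.2e-18).

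Set against the CD11b-positive mean, the 5 genes of this set did not fall alike in the other populations. In ACSA2-positive libraries P2rx4 kept 33.4% of its CD11b-positive level and P2rx7 13.1%, Entpd1 3.49%, Adora3 0.258% and P2ry6 0.179%, where the summed microglia markers kept 0.830%. In CaMKII positive libraries P2rx4 kept 42.4%, P2rx7 15.7%, Entpd1 13.0%, P2ry6 6.16% and Adora3 4.74%, beside 4.55% of the microglia markers and 13.7% of 6 border macrophage or monocyte markers. In double-positive libraries the 5 genes stood at 111, 91.5, 93.7, 90.9 and 93.9% in the order P2rx4, P2rx7, Entpd1, P2ry6 and Adora3, and the microglia markers at 83.9%. The part of other cells in these values was not tested.

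**Figure D2:**
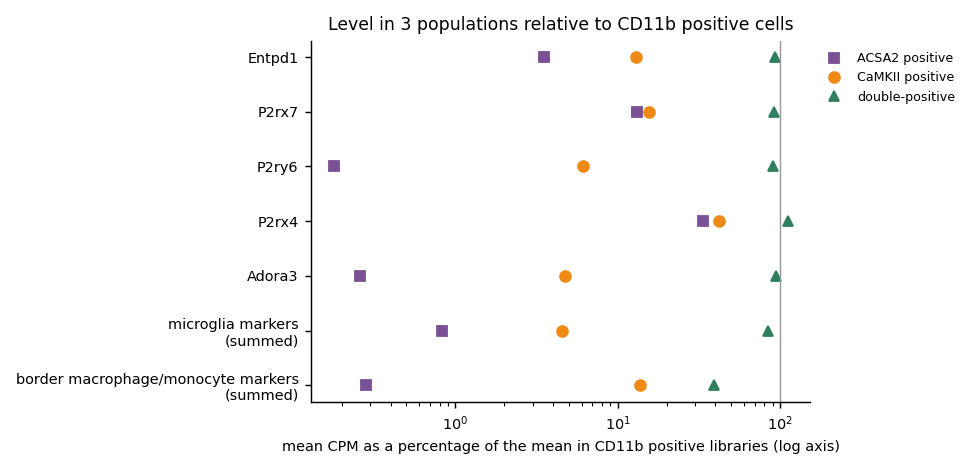
Mean CPM of P2rx4, P2rx7, P2ry6, Adora3, Entpd1 and of the summed microglia and border macrophage or monocyte markers in each other population, as a percent of the CD11b-positive mean, on a log axis. In ACSA2-positive libraries P2rx4 (33.4%) and P2rx7 (13.1%) lie far above the microglia markers (0.830%), whereas P2ry6 (0.179%) and Adora3 (0.258%) lie under them.

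Adora1, the Gi-coupled high-affinity adenosine receptor, was at 78.2 ± 10.4 CPM in ACSA2-positive and 64.8 ± 21.0 CPM in CaMKII positive libraries, 3.28 ± 1.97 in double-positive and 1.37 ± 0.814 in CD11b-positive libraries. It was 58.3-fold higher in ACSA2-positive than in CD11b-positive libraries (41.0 to 82.9, p.adj = 3.1e-28). Its levels in ACSA2-positive libraries ran from 60.8 to 96.8 CPM and overlapped with the CaMKII positive range of 27.8 to 99.9 CPM, and that difference did not pass the test (log2FC −0.40 ± 0.23 SE, p.adj = 0.20). On the opposite strand, Mybph covers 20.1% of the exon bases of Adora1, and the strand setting of the counting is not given in the sources used here.

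Adora2b, the Gs-coupled low-affinity receptor, was at 66.3 ± 11.9 CPM in ACSA2-positive libraries, with a range of 46.3 to 84.4 and a median of 66.2. It was 32.2 ± 11.0 CPM in CaMKII positive libraries, 1.19 ± 0.858 in double-positive and 0.461 ± 0.473 in CD11b-positive libraries. Among the members it was the only one called lower in CaMKII positive libraries than in the ACSA2-positive, by 2.32-fold (1.44 to 3.72, p.adj = 0.0042). The difference between ACSA2-positive and CD11b-positive libraries was 162-fold (92.6 to 284, p.adj = 1.6e-23). Relative to ACSA2-positive libraries, Adora2b kept 48.6% and Adora1 82.9% in CaMKII positive libraries, where the astrocyte markers kept 48.0%.

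P2ry1, the ADP receptor known for calcium signals in astrocytes, was at 9.51 ± 7.03 CPM in CaMKII positive libraries and 4.85 ± 4.97 CPM in ACSA2-positive libraries. Among ACSA2-positive libraries it ran from 0.356 over 2.64 to 18.8 CPM, a 52.7-fold range. It was at most 1.73 CPM in double-positive and at most 1.18 CPM in CD11b-positive libraries, and was 15.4-fold lower in CD11b-positive than in ACSA2-positive libraries (6.08 to 39.0, p.adj = 7.7e-07). The predicted gene Gm37035 covers 23.1% of its exon bases on the opposite strand.

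P2ry14, which answers to UDP-glucose, ran likewise at 10.4 ± 6.38 CPM in CaMKII positive and 6.86 ± 3.76 CPM in ACSA2-positive libraries, and was at most 2.58 CPM in the others. CaMKII positive and ACSA2-positive libraries overlapped and did not differ past the test for P2ry1 (p.adj = 0.61) or P2ry14 (p.adj = 1.00).

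Nt5e, the enzyme that yields adenosine, was the least even member. In CaMKII positive libraries it ran from 1.87 over 6.10 to 46.6 CPM, a coefficient of variation of 119%, and was 5.72-fold higher than in ACSA2-positive libraries (2.10 to 15.6, p.adj = 0.0050), where the range was 0 to 3.90 CPM. The highest CaMKII positive value came from sham mouse 8, the other sham mice being at 1.87 to 7.66 CPM, and without mouse 8 the log2FC was 2.22 (p.adj = 0.023) instead of 2.52. In batch 3 alone it was 2.01 and was no longer called (p.adj = 0.079). Double-positive libraries held 0 to 5.92 CPM with 7 of 16 at 0, and CD11b-positive libraries 0 to 2.00 CPM with 3 of 15 at 0. Thus CD73 transcript was low in the same CD11b-positive libraries that held the most CD39 transcript: the means were 0.0607 and 173 CPM per kb.

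Across the other pairs of populations, the members were called as follows. All 10 passed between CaMKII positive and double-positive libraries (42.5% of all genes), 5 higher in each, and 9 did not overlap, Nt5e being the exception, where 18.8% of all genes had no overlap. All 10 also passed between CaMKII positive and CD11b-positive libraries (42.2%), with 9 not overlapping (19.2% of all genes), and between double-positive and ACSA2-positive libraries (51.1%), with 7 not overlapping (22.9% of all genes). Between CaMKII positive and ACSA2-positive libraries 5 of 10 were called (16.2% of all genes): P2ry6, Adora3, Entpd1 and Nt5e higher in CaMKII positive libraries and Adora2b lower. Of these, P2ry6 and Entpd1 did not overlap, beside 5.82% of all genes.

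Between double-positive and CD11b-positive libraries 3 of 10 members were called, against 6.82% of all genes, all 3 higher in double-positive libraries at low levels. The ranges of all 10 members overlapped, and 0.241% of all genes had none. These were Adora1 (log2FC 1.07 ± 0.23 SE, p.adj = 0.00086), P2ry14 (1.35 ± 0.45 SE, p.adj = 0.046) and Adora2b (1.27 ± 0.39 SE, p.adj = 0.028). Astrocyte markers moved the same way, at 861 ± 286 CPM in double-positive and 245 ± 40.0 CPM in CD11b-positive libraries, 2.25 and 0.640% of the ACSA2-positive level. Relative to the CD11b-positive mean, double-positive libraries stood at 352% for astrocyte, 378% for oligodendrocyte precursor, 342% for mural, 210% for general neuron and 146% for endothelial markers, and at 39.3% for border macrophage or monocyte markers. The part of these lists in the result was not tested. With the mouse as a block, 0 of the 3 stayed called, although the folds were about as large: the log2FC was 0.98 for Adora1 (p.adj = 0.0077), 1.38 for P2ry14 (p.adj = 0.12) and 1.22 for Adora2b (p.adj = 0.058). Within batch 3 alone the log2FC of Adora2b was 0.39 ± 0.51 (SE, p.adj = 0.94).

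The genes most like each member over the 58 libraries are given as a description, from the correlation of log2(CPM + 0.5) among 14423 protein-coding genes. The points share their libraries and cell populations. For Entpd1 they were Rps6ka1 (r = 0.994) and Serinc3 (0.993), for P2rx7 Nrip1 and Pip4k2a (both 0.992), and for P2rx4 Plekho1 (0.974) and Slc37a2 (0.973). P2ry6 was nearest to C5ar2 and Fcgr1 (both 0.992) and Adora3 to Tgfbr1 (0.992) and Smap2 (0.991). Adora1 was nearest to Csrp1 and Ddit4l (both 0.984) and Adora2b to Pfn4 (0.986) and Sfxn5 (0.985). The remaining correlations were lower, for P2ry1 with Rph3al (0.923) and Irx3 (0.909), for P2ry14 with Slc6a20a (0.913) and Mocos (0.906), and for Nt5e with Slc9a2 (0.888) and Cdc42ep5 (0.852).

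Of 38 further purinergic genes, receptors, nucleotidases, adenosine enzymes, nucleoside carriers and pannexins, 37 matched and 36 were tested between populations. Between ACSA2-positive and CD11b-positive libraries 15 were called higher in the first and 13 in the second, beside 51.2% of all genes called. Per kb, the highest in CD11b-positive libraries were P2ry12, the ADP receptor of resting microglia, at 1070 CPM per kb, P2ry13 at 435 and the lysosomal nucleoside carrier Slc29a3 at 130, and the same genes led in double-positive libraries at 881, 358 and 110. In ACSA2-positive libraries Entpd2, a nucleotidase that prefers ATP over ADP, led at 37.7 CPM per kb, followed by Adk, adenosine kinase, at 23.1 and Alpl, tissue-nonspecific alkaline phosphatase, at 18.5. Entpd2 was 80.3 ± 11.6 CPM in ACSA2-positive and 0.133 ± 0.199 CPM in CD11b-positive libraries, the reverse of Entpd1. Alpl, which also hydrolyses AMP, led in CaMKII positive libraries at 31.1 CPM per kb, before P2ry12 at 30.1 and Slc29a3 at 20.3.

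Calls in that list numbered 17 higher and 10 lower in CaMKII positive than in double-positive libraries (42.5% of all genes called), 12 and 4 against ACSA2-positive (16.2%) and 15 and 9 against CD11b-positive libraries (42.2%). Double-positive libraries had 15 higher and 16 lower than ACSA2-positive (51.1%), and 3 higher and 3 lower than CD11b-positive libraries (6.82%).

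Of 12 signalling partners of P2X4 and P2X7, 10 were called higher in CD11b-positive than in ACSA2-positive libraries and 2 lower, again beside 51.2% of all genes. Ctss, the protease cathepsin S released downstream of P2X7, led the partners at 2037 CPM per kb in CD11b-positive and 1905 in double-positive libraries, followed by the kinase Lyn at 178 and 171 and the transcription factor Irf5 at 131 and 134. Il18, a cytokine processed by the inflammasome, went the other way, at 139 ± 14.8 CPM in ACSA2-positive and 24.7 ± 2.83 CPM in CD11b-positive libraries (log2FC 2.55 for the first over the second, p.adj = 5.1e-27), and led there at 135 CPM per kb, ahead of Mapk14 at 8.89 and Lyn at 3.52. In CaMKII positive libraries Ctss (207 CPM per kb), Il18 (83.5) and Il1b (25.5) led. No partner was called between double-positive and CD11b-positive libraries, by edgeR, with 0 of 12 at an unadjusted p under 0.05, where 6.82% of all genes were called and 22% had such a p.

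The study asked what a burn leaves behind in these cells after 5 weeks. No member was called between burn and sham in any population by edgeR, and the same was true of all genes: 0% in CaMKII positive, 0% in double-positive, 0% in ACSA2-positive and 0% in CD11b-positive libraries. At an unadjusted p under 0.05 edgeR counted 1, 2, 0 and 0 members in that order and DESeq2 1, 2, 1 and 0, and DESeq2 called 0 members, while of all genes it called 0.0107, 0.00749, 0.0967 and 0.307%. The share of all genes at such a p was 3.9, 7.01, 10.7 and 7.81% by edgeR and 2.78, 4.29, 6.81 and 4.58% by DESeq2. The members at a mean of 1 CPM or more in either group had a median log2FC of 0.18 (10 genes), −0.02 (7), 0.12 (8) and 0.02 (6), beside medians over all genes of 0.02, −0.0039, 0.05 and 0.0022.

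In CD11b-positive libraries the pain-associated microglial genes had narrow intervals around no change. P2rx7 was at 258, 285 and 304 CPM (lowest, median, highest) in burned mice and at 265, 286 and 301 in sham mice, a log2FC of 0.03 with an interval of −0.12 to 0.17. P2rx4 was at 73.7, 82.4 and 93.9 CPM after the burn and at 69.0, 77.8 and 97.3 after sham, a log2FC of 0.09 (−0.08 to 0.26). P2ry6 was at 154, 178 and 195 CPM against 135, 171 and 226, a log2FC of 0.15 (−0.05 to 0.35). The intervals of Entpd1 (−0.17 to 0.19) and Adora3 (−0.23 to 0.21) also lay inside 2-fold, and those 5 of the 6 genes with a fold change were the ones for which it did. All these ranges overlapped. Border macrophage or monocyte markers in these libraries ran from 251 over 418 to 526 CPM after the burn and from 93.5 over 309.6 to 413 CPM after sham, and their part in the values was not tested.

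In ACSA2-positive libraries Adora1 was at 69.6, 76.0 and 93.7 CPM in burned and at 60.8, 77.9 and 96.8 in sham mice, a log2FC of 0.08 (−0.14 to 0.29). Adora2b was at 46.3, 63.1 and 80.1 CPM against 48.8, 71.0 and 84.4, a log2FC of −0.15 (−0.43 to 0.13). P2ry1 had the smallest p among the members there, with 0.356, 5.28 and 18.8 CPM after the burn and 0.392, 2.56 and 7.76 after sham, a log2FC of 1.03 ± 0.51 (SE, p = 0.058, p.adj = 0.49). The ranges of P2ry1 overlapped, with 2 burned mice (14.1 and 18.8 CPM) above every sham mouse. Endothelial markers in these libraries ran from 469 over 679 to 1358 CPM after the burn and from 141 over 549 to 788 CPM after sham. Border macrophage or monocyte markers summed to at most 4.06 CPM after the burn and 1.42 CPM after sham, and the 2 burned mice just named held 4.06 and 1.77 CPM of them. The part of these markers in the result was not tested.

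**Figure D3:**
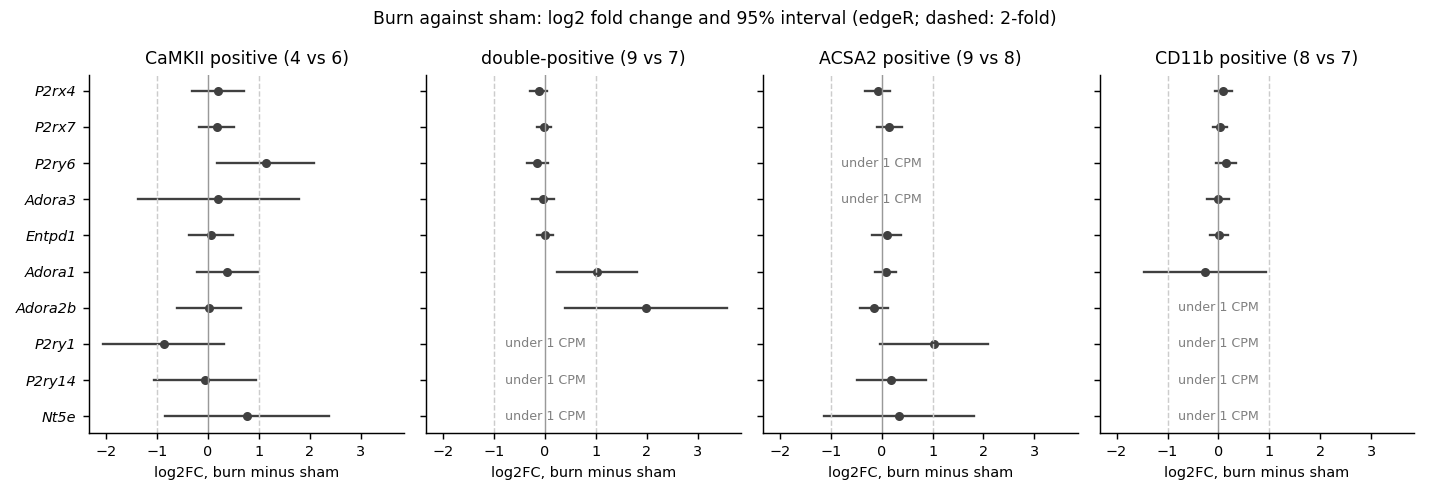
Burn minus sham log2FC of the members in each population, from edgeR, with 95% intervals, for genes at a mean of 1 CPM or more in either group; the solid line is no change and the dashed lines are 2-fold. Intervals inside 2-fold held for 5 genes in CaMKII positive, 5 in double-positive, 6 in ACSA2-positive and 5 in CD11b-positive libraries.

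In CaMKII positive libraries P2ry6 was at 5.82, 10.1, 15.7 and 31.8 CPM in the 4 burned mice and ran from 3.28 over 7.24 to 12.3 CPM in the 6 sham mice, so that 2 of the 4 burned mice lay above every sham mouse. Its log2FC was 1.13 ± 0.44 (SE, p = 0.023, p.adj = 1.00). Microglia markers in the same libraries summed to 769 to 2239 CPM after the burn and 490 to 1665 CPM after sham, and per 1000 CPM of those markers P2ry6 was at 10.9 ± 3.40 against 7.98 ± 2.17 CPM. Border macrophage or monocyte markers there ran from 26.9 over 50.5 to 145 CPM after the burn and from 1.59 over 23.1 to 75.1 CPM after sham. The part of both lists in the result was not tested. The other members had p over 0.05 here: P2rx7 was at 36.5, 45.4, 51.7 and 52.3 CPM after the burn against 27.4 to 55.6 after sham, and Entpd1 at 87.4, 119, 137 and 168 against 98.6 to 165. Nt5e was at 2.55, 6.01, 11.6 and 25.7 CPM against 1.87 to 46.6, a log2FC of 0.76 with an interval of −0.84 to 2.37. That estimate turned to −0.0543 without a batch term and to −0.18 without mouse 24.

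In double-positive libraries the members with an unadjusted p under 0.05 were both adenosine receptors of the ACSA2-positive set. Adora1 was at 2.56, 3.59 and 8.95 CPM in burned and at 0.565, 1.75 and 3.51 in sham mice, a log2FC of 1.02 ± 0.38 (SE, p = 0.013, p.adj = 0.71). Adora2b was at 0.463, 1.71 and 2.83 CPM against 0, 0.565 and 1.65, a log2FC of 1.98 ± 0.76 (SE, p = 0.017, p.adj = 0.71). Both ranges overlapped, and the medians in burned mice lay above the highest sham value for each gene; these ranges include the 3 burned mice of batch 1. Astrocyte markers in these libraries ran from 628 over 913 to 1270 CPM after the burn and from 452 over 563 to 1327 CPM after sham; per 1000 CPM of those markers Adora1 was at 4.93 ± 2.69 against 2.73 ± 1.36 CPM and Adora2b at 1.82 ± 1.08 against 0.713 ± 0.590, and the part of the markers in the result was not tested. Other marker lists reached higher values in burned mice too: endothelial markers ran from 51.4 over 71.7 to 606 CPM against 47.5 over 76.5 to 99.5, oligodendrocyte precursor markers from 4.45 over 10.5 to 114 against 4.03 over 6.24 to 17.8, and mural markers from 8.69 over 24.7 to 54.1 against 8.20 over 20.7 to 23.3. Mouse 10 was the highest in all 3 lists. It belongs to batch 1, which held 3 burned and 0 sham double-positive libraries, so those libraries could not bear on a log2FC fitted in this population alone with batch as a term. The levels per 1000 CPM of astrocyte markers were not adjusted for batch and include those 3 burned libraries. In batch 3 alone (5 burned and 5 sham mice) the log2FC was 1.10 for Adora1 and 2.38 for Adora2b, both with p.adj = 0.68. The genes at a high level in the same libraries had narrow intervals, such as P2rx7 at −0.02 (−0.15 to 0.11) and Entpd1 at 0.0025 (−0.15 to 0.16).

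**Figure D4:**
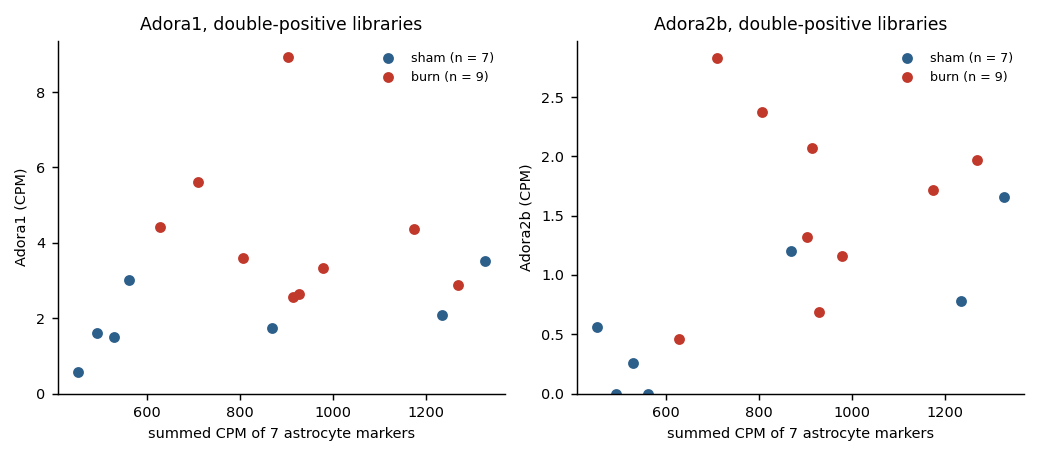
CPM of Adora1 and of Adora2b in each double-positive library against the summed CPM of 7 astrocyte markers, with burned mice in red (n = 9) and sham mice in blue (n = 7). Adora1 runs from 2.56 to 8.95 CPM in burned and from 0.565 to 3.51 CPM in sham mice, and both treatments span much of the marker axis.

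Whether the burn effect differed between populations was tested in the joint fit, and 0 of 10 members were called in each of the 3 tests by edgeR. The batch terms of that fit were shared by the populations, so the 3 burned double-positive libraries of batch 1, mouse 10 among them, did enter these tests. The share of all genes called was 0.0362% for CaMKII positive against double-positive, 0% for ACSA2-positive against CD11b-positive and 0.112% for double-positive against CD11b-positive libraries, and 0, 0 and 2 members had an unadjusted p under 0.05, where 8.13, 9.52 and 8.03% of all genes did. The latter were Adora2b, with a difference of log2FC of 2.22 ± 0.76 (SE, p = 0.0053, p.adj = 0.22), and Adora1, with 1.15 ± 0.45 (SE, p = 0.014, p.adj = 0.33). The CD11b-positive side of Adora2b lay under the 1 CPM set for a burn log2FC. Its mean there was 0.323 CPM after the burn and 0.618 CPM after sham, with 4 of 15 libraries at 0. Adora1 was at 1.33 and 1.41 CPM in those libraries. For P2ry6 the burn effect in CaMKII positive libraries exceeded that in double-positive libraries by 1.04 ± 0.60 (SE, p.adj = 0.72).

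Neither gene list had a burn call in any population by edgeR. Among the further purinergic genes at a mean of 1 CPM or more, an unadjusted p under 0.05 was found for 0 of 28 in CaMKII positive, 1 of 20 in double-positive, 0 of 19 in ACSA2-positive and 0 of 21 in CD11b-positive libraries. Among the partners it was found for 4 of 11, 1 of 11, 0 of 9 and 0 of 11 in that order, and among all genes for 3.9, 7.01, 10.7 and 7.81%. The shares of all genes have no limit of 1 CPM. Under a stricter filter on low counts (filterByExpr) edgeR gave such a p for 328 of 20052, 532 of 17823, 1146 of 18722 and 730 of 17272 genes. The smallest p among the purinergic genes were those of Enpp2 in CaMKII positive (log2FC −0.48, p = 0.063), Pnp, purine nucleoside phosphorylase, in double-positive (−0.30, p = 0.013, p.adj = 0.71), Slc29a1 in ACSA2-positive (0.46, p = 0.087) and P2rx1 in CD11b-positive libraries (0.40, p = 0.071). Among the partners they were Nlrp3 in CaMKII positive (1.11, p = 0.015, p.adj = 1.00), Il18 in double-positive (0.25, p = 0.021), Pycard in ACSA2-positive (1.14, p = 0.19) and Casp1 in CD11b-positive libraries (0.21, p = 0.087). The partners in CaMKII positive libraries had a median log2FC of 0.54 over 11 genes, beside 0.02 over all genes; the microglia and the border macrophage or monocyte markers of those libraries, both with a higher median after the burn, are given above and their part in this was not tested.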

How the data were processed

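Sorted cells of 4 populations were profiled by ribosome-depleted, stranded total RNA sequencing, 1 library per mouse and population. The authors trimmed reads with fastp, aligned them with STAR to GRCm39 (the labels also name mm10) and counted them with GenomicAlignments; whether strand was used is not given in the sources used here. The deposited tables of raw counts per gene were used, and the authors' deposited log2-scale values, a DESeq2 transformation per population, were not. As in the study, mouse 3 and the double-positive library of mouse 8 were left out, leaving 58 of 63 libraries. No 2 libraries were identical. Depth limits precision as the 3-count limit in CPM shows, for counting error only.

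Burn and sham were compared in each population with edgeR 4.0.16 in R 4.3.3 (quasi-likelihood, TMM, batch as a term, at least 10 counts in total, Benjamini-Hochberg over all genes). A gene was called where the absolute log2FC was 1 or more and p.adj no higher than 0.05. Populations and interactions were compared in 1 joint fit of 8 groups and batch. Standard errors are the log2FC over the square root of F. Batch is the sequencing batch listed for each mouse in the study's supplement. Batch 1 held 0 sham double-positive libraries and batch 2 held 0 burned CD11b-positive libraries, so in the fit of each population those libraries do not bear on its burn effect. In the joint fit the batch terms were shared by the populations, so there they do. Libraries of 1 mouse carry its number in all populations, so they are paired; median correlations of their deviations from group means were 0.015 to 0.19, and the mouse as a block was an alternative. CPM used the total of each library. A reference table gave symbols for 52073 of 56980 gene identifiers. Exon lengths and overlaps came from the GENCODE annotation of GRCm38, so no positions are given for the genes as counted; promoters and their positions came from RefSeq (GRCm38.p6), which held 9 of the 10 members and not P2ry6.

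Members and gene lists were chosen with earlier results of these data known. Named are the members, the 3 genes of each list highest per kb, the gene with the smallest p per list and population among those at 1 CPM or more, and the 2 genes most correlated with each member; Entpd2 and Il18 are described further by choice after seeing values. Other settings were a DESeq2 1.42.0 test, TMM replaced by DESeq2 size factors or by totals alone, a stricter filter (filterByExpr) or none, every deposited library, batch 3 alone, a fit without batch, calls with no fold limit, and leaving out 1 mouse at a time. On simulated counts with 200 genes changed, burn tests called 88 of 100 genes changed by a log2FC of 1.5 in the CaMKII positive design (27756 genes), 98 in the double-positive (26305), 98 in the ACSA2-positive (27569) and 100 in the CD11b-positive (25720). False calls numbered 10, 4, 2 and 3 in that order. The interaction test of ACSA2-positive against CD11b-positive libraries called 76 of 100 such genes, with 13 false calls. The simulation gave all genes the same dispersion and no batch effect, and changed only genes with many counts. It therefore does not give the power for members that are sparse or vary more between mice. Figures used matplotlib 3.10.9.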

Additional observations from a re-analysis of the deposited data

Results flagged for a closer look

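In 4 of 62 groups of 4 to 9 libraries, 1 library lay far from the others by Dixon's gap criterion, which chance meets in about 1 of 20 groups. Adora1 in the double-positive libraries of burned mice was at 8.95 CPM in mouse 10 and at 2.56 to 5.63 CPM in the other 8. That library was also the highest of the 16 in endothelial (606 CPM), oligodendrocyte (376), border macrophage or monocyte (347), oligodendrocyte precursor (114) and mural (54.1) markers, and their part in the value was not tested. Mouse 10 lies in batch 1, where the double-positive libraries were from burned mice alone. With batch as a term its library could not move the burn log2FC fitted in this population alone. Leaving out a mouse of batch 2 or 3 gave 0.85 to 1.24.

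Nt5e in the CaMKII positive libraries of sham mice was at 46.6 CPM in mouse 8 and at 1.87 to 7.66 CPM in the other 5. The same library held 3707 CPM of oligodendrocyte markers, the highest of 10, where the others held 222 to 1235 CPM. P2ry14 in ACSA2-positive libraries of burned mice was at 16.9 CPM in mouse 21 against 3.11 to 7.43 in the others. P2rx7 in ACSA2-positive libraries of sham mice was at 44.6 CPM in mouse 18 against 30.3 to 36.9 in the others.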

How the results depend on the processing

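Under every other setting that was run, 0 members were called between burn and sham in each population, and 0 in each interaction. DESeq2 called 3, 2, 27 and 80 genes in all for CaMKII positive, double-positive, ACSA2-positive and CD11b-positive libraries where the main edgeR fit called 0, none of them a member. Other settings of edgeR called genes too, again no member. Among them were 136 double-positive genes with all deposited libraries, and 14 double-positive and 4 ACSA2-positive genes without a count filter. Between populations the count of double-positive against CD11b-positive libraries moved most, from 3 members to 0 with the replicate block that pairs libraries of 1 mouse, 0 with all deposited libraries, 1 in batch 3 alone and 1 to 3 with a mouse left out (1 without mouse 7, 10, 12, 13, 15, 18 or 22). The block also left Nt5e uncalled in ACSA2-positive against CD11b-positive libraries (log2FC 1.61, p.adj = 0.10), 9 members instead of 10, and turned P2ry1 in double-positive against CD11b-positive libraries to 0.0633; it changed no other call among the members. In batch 3 alone, Nt5e lost its call in CaMKII positive against ACSA2-positive libraries (log2FC 2.01, p.adj = 0.079), 4 members instead of 5. The counts of the other 3 pairs stayed at 10.

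Some burn log2FC changed sign, none of them called, and all but that of Nt5e in CaMKII positive libraries (0.76) lay between −0.26 and 0.20. With all deposited libraries they became 0.16 (P2ry14, CaMKII positive), 0.11 (P2rx4), 0.41 (P2rx7), 0.29 (P2ry6) and 0.30 (Adora3, all double-positive). In batch 3 alone they became −0.14 (Adora2b, CaMKII positive) and −0.0303 (Entpd1, double-positive). Without a batch term they became −0.0215 (Adora2b) and −0.0543 (Nt5e) in CaMKII positive, 0.00470 (P2rx7) and 0.0192 (Adora3) in double-positive, and −0.00241 (Entpd1) in CD11b-positive libraries. With library size only, Entpd1 became −0.00406 in double-positive and −0.00136 in CD11b-positive libraries. With a mouse left out, CaMKII positive values ran from −0.0359 to 0.36 (P2rx4), −0.22 to 0.23 (P2ry14), −0.16 to 0.23 (Adora2b), −0.0920 to 0.21 (Entpd1) and −0.18 to 1.41 (Nt5e); double-positive from −0.0636 to 0.0025 (P2rx7), −0.13 to 0.0086 (Adora3) and −0.0317 to 0.0360 (Entpd1); ACSA2-positive from −0.10 to 0.48 (P2ry14); CD11b-positive from −0.54 to 0.0358 (Adora1), −0.0475 to 0.11 (Adora3) and −0.0352 to 0.0688 (Entpd1). Population contrasts ran from −0.0155 to 0.23 (P2rx4) and −0.0838 to 0.37 (P2ry14) in CaMKII positive against ACSA2-positive, and from −0.63 to 0.46 (P2ry1) and −1.57 to 0.0314 (Nt5e) in double-positive against CD11b-positive libraries. The cause of these changes was not tested. Library size only moved the median of all genes by 0.17 between CaMKII positive and ACSA2-positive, 0.11 against CD11b-positive and 0.12 against double-positive libraries. All 40 mean levels stayed within 1 SD under TMM scaling.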

Other observations

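The libraries left out of the comparisons were read for the members too. Of mouse 3, a burned mouse, the ACSA2-positive and double-positive libraries held all 10 members inside the range of the libraries used, and the CaMKII positive library 9 of 10, with P2ry6 at 2.97 CPM below it. Its CD11b-positive library held 6 of 10 inside, with P2ry1 at 5.98 and Adora2b at 3.79 CPM above the range and P2rx7 at 238 and Adora3 at 45.0 CPM below. From sham mouse 8, the shallow double-positive library, of 331215 counts, held 4 of 10 inside. Those 4 were all at a count of 0, which the range of the libraries used also reached. Entpd1 and P2ry6 were listed at 0, P2rx7 was at 9.06 CPM (3 counts) and P2rx4 at 51.3 CPM (17 counts).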
